A study of Mus musculus with 12 samples.

Results

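The ABC drug efflux transporters are ATP-driven pumps that carry drugs, bile acids and conjugated metabolites out of cells. The 10 genes described here are Abcb1a, Abcb1b, Abcb4, Abcc1, Abcc2, Abcc3, Abcc4, Abcc5, Abcc10 and Abcg2. They were chosen by name from the 47069 mouse genes of the count table, with earlier results of these data known. They were followed through 4 groups of 3 RNA sequencing libraries, made from LGR5+ and from LGR5- sorted cells, each either left untreated or exposed to 5-FU. In every group the cells came from liver cancer organoids of C57BL/6 mice carrying the LGR5-DTRGFP allele, which places the diphtheria toxin receptor and GFP under the Lgr5 locus, so that GFP in the sort stands for activity of that locus. 5-FU (5-fluorouracil) is a pyrimidine analog used in chemotherapy; the methods give 10 µM, refreshed every other day, for the organoid drug assay, whereas dose and duration for the sequenced cells are not given separately in the sources used here, and neither is the number of organoid lines or cultures behind the libraries. By the study's methods, sorting left out dead cells by propidium iodide and leucocytes by CD45. The comparison asks whether the drug pumps differed between the LGR5 populations and whether 5-FU changed them.

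Abcb1a and Abcb1b are the rodent pair of genes that encode P-glycoprotein, which pumps many bulky, uncharged drugs, and Abcb4 encodes the phospholipid floppase of the bile canaliculus. The Abcc genes encode multidrug resistance proteins. Of these, Abcc1, Abcc2 and Abcc3 carry glutathione, glucuronide and sulphate conjugates, whereas Abcc4 and Abcc5 also carry cyclic nucleotides and nucleotide analogs, among them the monophosphate forms of 5-FU, and Abcc10 is a broader relative. Abcg2 encodes the breast cancer resistance protein, a pump of the apical membrane. In normal liver, Abcb1, Abcb4, Abcc2 and Abcg2 proteins face the bile, and Abcc3 and Abcc4 face the blood.

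The libraries held 13750591 to 19323514 counted reads, at which a count of 0 allows 0.155 to 0.218 CPM (counts per 1000000 reads). Intervals on single counts would cover counting error only. In both LGR5- replicate 3 libraries, mitochondrial genes took more of the reads (6.93% untreated and 6.44% after 5-FU) than in the other 10 libraries (1.47% to 3.08%), so results are also given without this pair. Lgr5 itself did not separate the sorted populations. It ranged from 22.99 to 36.0 CPM in untreated LGR5- cells and from 23.4 to 27.5 CPM in untreated LGR5+ cells, and after 5-FU from 18.3 to 36.0 and from 26.8 to 27.2 CPM. Of 9 hepatocyte markers 4 had more than 3 reads in any library. Hnf4a had at most 2 reads and Alb at most 33, whereas Afp, the alpha-fetoprotein gene of fetal liver and liver cancer, had 9.88 to 54.3 CPM. Bile duct-like markers were high in all libraries, with Krt19 from 374 to 4482 CPM and Epcam from 674 to 1482 CPM. Sftpc, the surfactant gene of lung alveolar cells, lay between 2619 and 17330 CPM, and Nkx2-1, a lung and thyroid transcription factor, between 43.3 and 76.3 CPM. The labels give liver cancer as the tissue.

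All 10 transporter genes had reads, and 8 of them, with at least 14 reads in every library, passed the filter on low counts. Abcb4 had 0 to 8 reads and Abcc2 had 1 to 14 reads per library, and neither was tested. Levels are compared between genes only as CPM per kilobase of exon. On that scale Abcc4 led in all 4 groups, with 4.09 ± 0.643 in untreated LGR5- cells, 4.61 ± 0.896 in untreated LGR5+ cells, 6.37 ± 1.05 in 5-FU-treated LGR5- cells and 6.62 ± 0.535 in 5-FU-treated LGR5+ cells (SD, n = 3). Its libraries did not overlap with those of the next gene in any group. Abcc4 made up 41.1% to 47.8% of the summed level of the 10 genes in the group means. In untreated cells of both populations the means of Abcc1 and Abcc5 came next, in this order, with libraries that overlapped in LGR5+ cells (1.26 to 1.90 against 0.771 to 1.38). Abcc10 and Abcg2 followed and overlapped with each other and with Abcc5. Abcc3, Abcb1b and Abcb1a followed at 0.273 to 0.512 CPM per kilobase, with neighbours overlapping in both populations. Abcb4 and Abcc2 were last, at 0.00395 to 0.0459 CPM per kilobase over the 4 groups. After 5-FU, the mean of Abcc5 came after that of Abcc4 and ahead of that of Abcc1 in both populations, with libraries of Abcc5 and Abcc1 that overlapped in LGR5- cells and not in LGR5+ cells. The means of Abcc3 and Abcb1b then lay above that of Abcg2. Their libraries overlapped with those of Abcg2, except for Abcb1b in LGR5- cells (1.01 to 1.58 against 0.396 to 0.859 CPM per kilobase). With the length of the longest transcript in place of all exons, Abcc4 still led and Abcb1b stood above Abcc3 in all 4 groups.

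**Figure D1:**
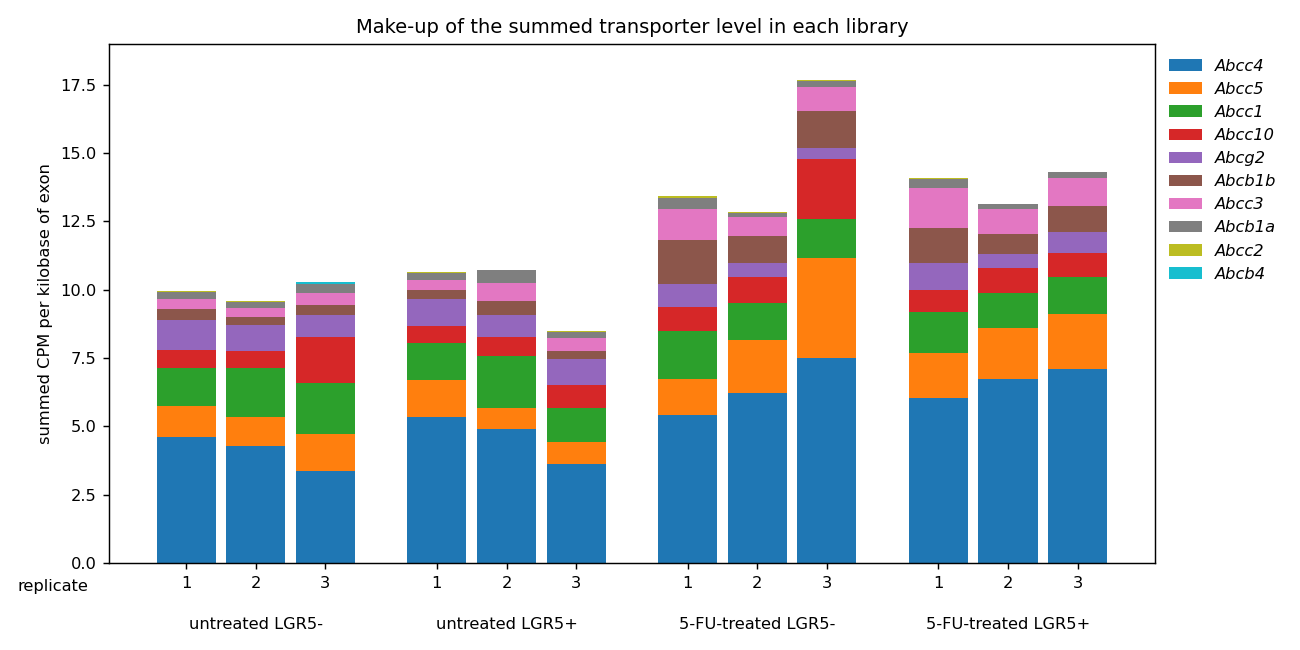
CPM per kilobase of exon (y axis), summed over the 10 transporter genes and stacked by gene, in each of the 12 libraries (x axis, by group and replicate). The untreated libraries sum to 8.49 to 10.7 and the 5-FU-treated ones to 12.8 to 17.7, and Abcc4 is the largest block in every library.

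The summed level of the 10 genes per kilobase was 9.97, 9.59 and 10.3 in untreated LGR5- cells and 10.7, 10.7 and 8.49 in untreated LGR5+ cells. After 5-FU the LGR5- libraries had 13.4, 12.8 and 17.7 and the LGR5+ libraries had 14.1, 13.1 and 14.3. Every 5-FU-treated library therefore lay above every untreated one, and the highest was LGR5- replicate 3. The sum is a description and was not tested.

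Before treatment, no transporter gene was called different between LGR5+ and LGR5- cells. edgeR's quasi-likelihood test called 0 of the 8 genes at an adjusted p under 0.05, none had an unadjusted p under 0.05, and DESeq2 called 0. The background was the same, with 0% of the 16157 genes tested called, although 214 had an unadjusted p under 0.05. The log2 differences ran from -0.42 for Abcc10 to 0.46 for Abcc3, with a median of -0.005 against -0.02 over all genes. Abcc10 had 11.4 CPM in untreated LGR5- replicate 3, against 4.42 and 4.06 CPM in replicates 1 and 2. Without both LGR5- replicate 3 libraries its difference turned positive. The widest 95% interval, that of Abcb1a, reached from -0.80 to 1.16 on the log2 scale, and the narrowest, that of Abcc4, from -0.24 to 0.59. A 1.5-fold difference in at least one direction lay within the interval of each of the 8 genes, so equal levels were not shown.

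After 5-FU, Abcb1b and Abcc3 were higher in both populations. In LGR5+ cells 2 of the 8 genes, Abcb1b and Abcc3, rose at an adjusted p under 0.05 by edgeR's quasi-likelihood test, and 0 fell. In LGR5- cells 3 of the 8, Abcb1b, Abcc3 and Abcc4, rose and 0 fell. Over all genes tested, 16% were called in LGR5+ cells and 9.66% were called higher, and in LGR5- cells 15.4% were called and 8.3% were called higher. The median log2 fold change of the 8 genes was 0.40 in LGR5+ cells and 0.56 in LGR5- cells, against -0.02 and -0.05 over all genes. DESeq2 called 3 and 4 of the genes, adding Abcc5 in both populations, and 20.6% and 19.5% of all genes. The count in LGR5+ cells fell to 1 without untreated replicate 3, treated replicate 1 or treated replicate 3, and that in LGR5- cells to 1 without untreated replicate 2. Under the limits of the study's methods, p under 0.05 and logFC beyond 1.5 in either direction, read here as an unadjusted p and a log2 fold change because the methods state neither, no transporter gene passed in LGR5+ cells and Abcb1b passed in LGR5- cells, where 7.23% and 7% of all genes did. Every 5-FU-treated LGR5+ library lay above every untreated one for 4 of the 10 genes (Abcb1b, Abcc3, Abcc4 and Abcc5) and below for 0, against 22.3% and 20% of all genes tested. In LGR5- cells 3 of the 10 (Abcb1b, Abcc3 and Abcc4) lay above and 0 below, against 13.7% and 13.4%. The exact permutation test of 3 against 3 libraries cannot give a p under 0.1.

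**Figure D2:**
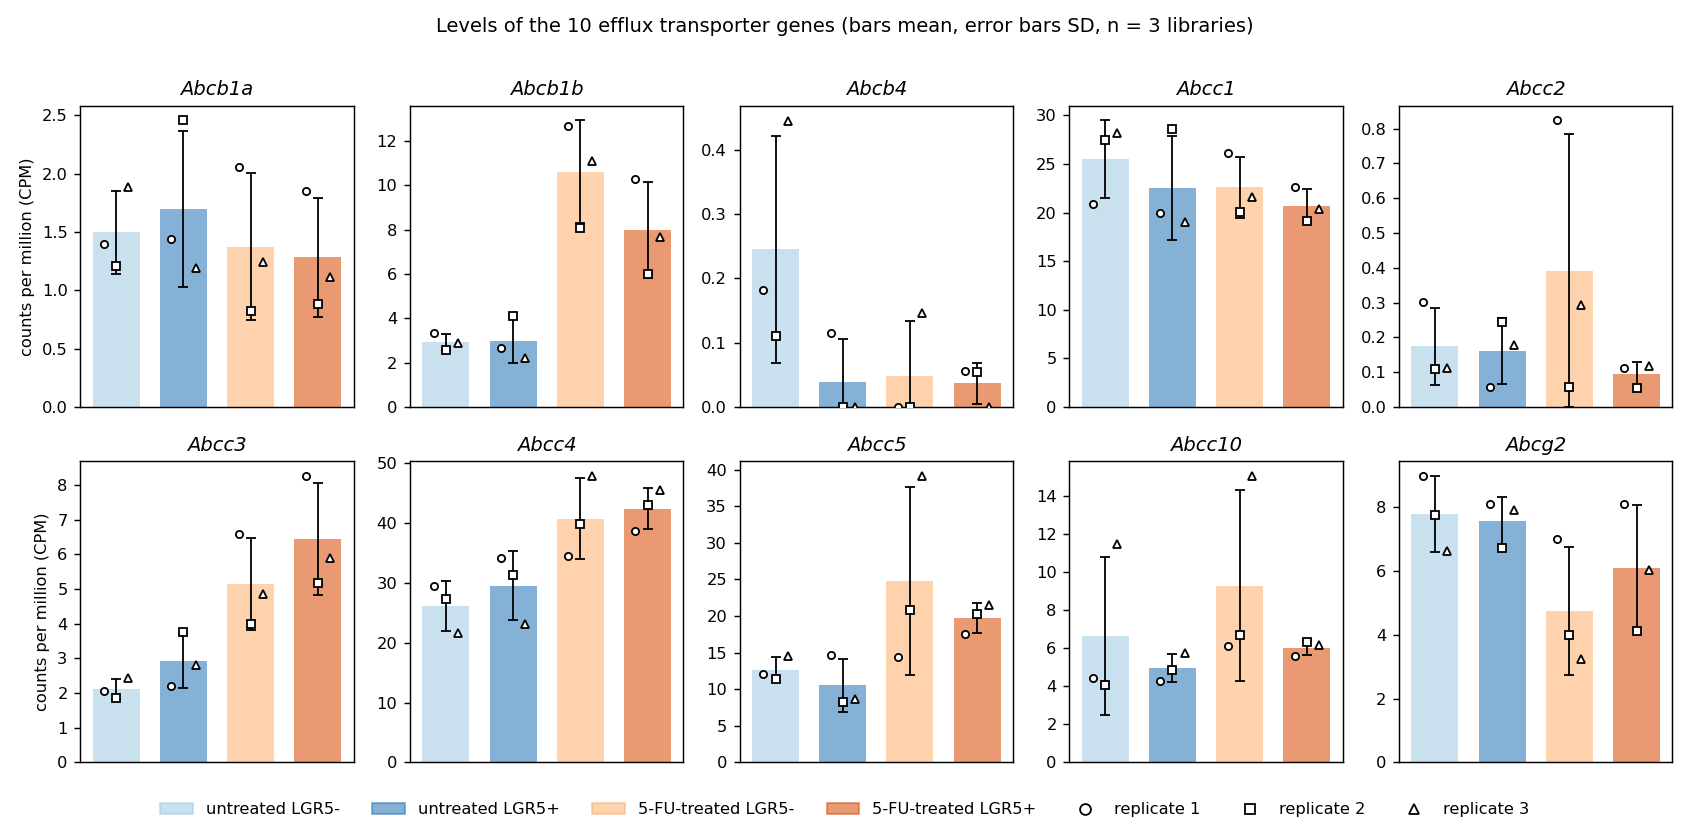
CPM (y axis, from 0, a scale for each gene) of the 10 transporter genes in the 4 groups. Bars are means of 3 libraries, error bars the SD (stopping at 0 where it reaches below), and points the libraries; Abcb1b and Abcc3 stand higher in both 5-FU-treated groups, and LGR5- replicate 3 stands apart for Abcc10 and Abcc5.

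Other genes moved along with the treatment. The summed level of the 7 bile duct-like markers was 2388 to 3112 CPM in untreated and 3425 to 11890 CPM in 5-FU-treated libraries, and that of the 4 proliferation genes was 1004 to 1384 CPM in untreated and 233 to 719 CPM in treated libraries. The 6 leukocyte markers summed to 6.41 to 14.1 CPM before and 17.3 to 54.7 CPM after 5-FU. Nearly all of this was Cd68, a lysosomal gene that is high in macrophages, while Ptprc, the gene of the CD45 used in the sort, had at most 36 reads and Cd3e had 0. The 9 hepatocyte markers summed to 10.6 to 22.4 CPM before and 26.1 to 56.8 CPM after, most of it Afp, which rose in LGR5+ cells (log2 fold change 1.31, adjusted p = 0.0177 by edgeR) and in LGR5- cells (1.43, adjusted p = 0.0118). The 4 endothelial markers summed to 1.68 to 4.06 CPM over all libraries. The 5 fibroblast and stellate cell markers summed to 50.3 to 51.6 CPM before and 26.7 to 43.7 CPM after 5-FU in LGR5+ cells, without overlap, and to 43.3 to 50.5 and 43.7 to 60.7 CPM in LGR5- cells. The 5 alveolar and airway markers summed to 3509 to 17420 CPM before and 2741 to 6194 CPM after 5-FU. The part of these shifts in the transporter results was not tested. In bulk libraries, more cells of a type and more RNA per cell cannot be told apart.

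Abcb1b, a P-glycoprotein gene, had the largest fold change of the 8 genes in both populations. It had 3.33, 2.58 and 2.89 CPM in untreated LGR5- cells and 12.7, 8.08 and 11.1 CPM after 5-FU. In LGR5+ cells it had 2.66, 4.12 and 2.21 CPM untreated and 10.3, 6.00 and 7.66 CPM after 5-FU. All 6 treated libraries lay above all 6 untreated ones. By edgeR's quasi-likelihood test Abcb1b rose 3.61-fold in LGR5- cells (log2 fold change 1.85, SE 0.30, adjusted p = 9.77e-04) and 2.66-fold in LGR5+ cells (log2 fold change 1.41, SE 0.30, adjusted p = 0.00486). The rise was called in all 14 alternative fits of each comparison, with log2 fold changes of 1.70 to 2.01 in LGR5- cells and 1.19 to 1.71 in LGR5+ cells.

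Its partner Abcb1a did not pass the test. It had 1.39, 1.21 and 1.89 CPM in untreated LGR5- cells, 2.06, 0.820 and 1.25 CPM in treated LGR5- cells, 1.44, 2.46 and 1.20 CPM in untreated LGR5+ cells and 1.86, 0.880 and 1.11 CPM in treated LGR5+ cells. The groups overlapped in both populations. The log2 fold change was -0.12 in LGR5- cells (95% interval -1.11 to 0.87) and -0.40 in LGR5+ cells (-1.39 to 0.58). With 14 to 40 reads per library, the interval of the fold thus ran from 0.463 to 1.83 and from 0.382 to 1.5. The adjusted p of edgeR's quasi-likelihood test was 0.901 and 0.613.

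The balance of the pair lay further toward Abcb1b in every 5-FU-treated library than in any untreated one. Abcb1b had 1.53 to 2.39 reads for each Abcb1a read in untreated LGR5- cells and 1.68 to 1.85 in untreated LGR5+ cells, against 6.14 to 9.86 and 5.55 to 6.90 after 5-FU. The log2 ratio was higher after 5-FU by 2.04 in LGR5- cells (3.02 ± 0.359 against 0.989 ± 0.335, SD, n = 3) and by 1.84 in LGR5+ cells (2.68 ± 0.177 against 0.837 ± 0.0806). Treated and untreated libraries did not overlap, and the two-sided exact permutation p was 0.1 in each population, the smallest that 3 against 3 libraries allow. This ratio was chosen after its values had been seen. The pair share sequence: 18.04% of the 50-base windows of the longest Abcb1b transcript also occur in Abcb1a and 15.5% the other way, so that the authors' counting could leave out or misplace some reads of each. The exons of Abcb1a share 10.1% of their bases with Gm42686 on the other strand, which had 2 reads in all 12 libraries, and those of Abcb1b share 1.79% with the antisense gene Gm5106, which had 93.

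**Figure D3:**
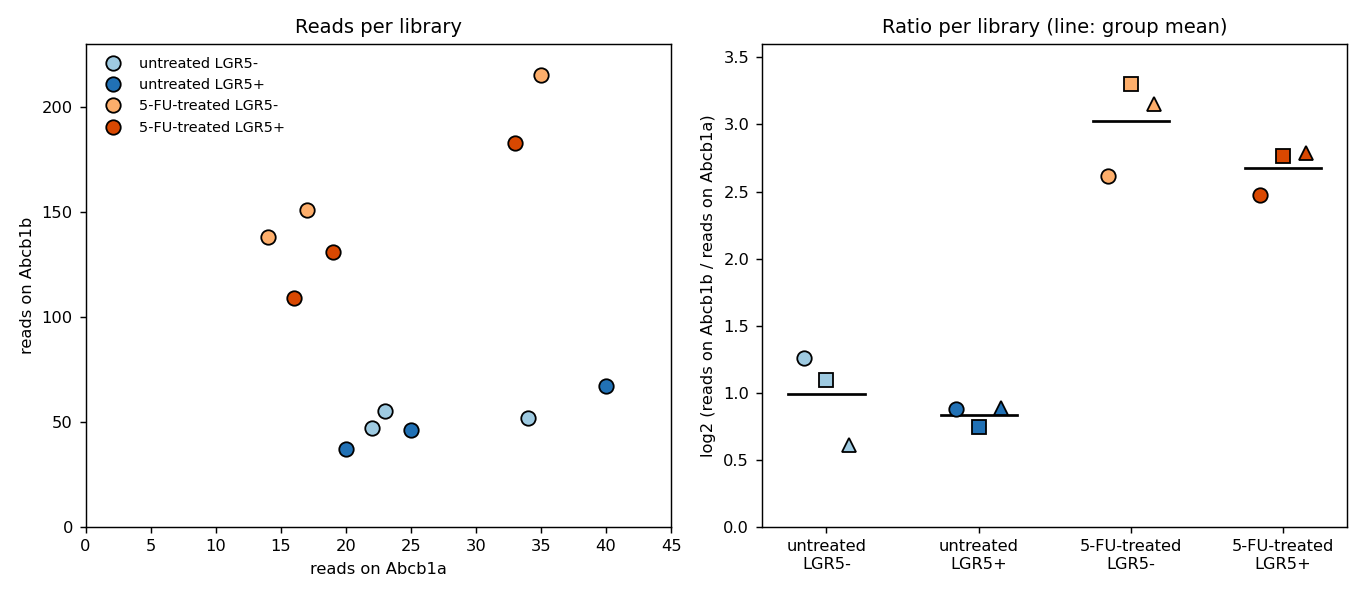
Left, reads on Abcb1b (y axis) against reads on Abcb1a (x axis) in each of the 12 libraries. Right, log2 ratio of Abcb1b to Abcb1a reads (y axis) by group, with a symbol per replicate and a line at the group mean; the treated libraries lie at 2.47 to 3.30 and the untreated ones at 0.61 to 1.26.

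Abcb1a (ENSMUSG00000040584) lies on chromosome 5 from 8660077 to 8748575 and Abcb1b (ENSMUSG00000028970) from 8798147 to 8866315, both on the plus strand of GRCm38 in GENCODE M21, next to each other and to Abcb4. Their promoters are shown because one gene of the pair passed the test and the other did not, and that of Abcc4 because it was the most abundant pump. RefSeq windows of 250 bases before to 50 after a start site (GRCm38.p6) were at hand for 8 of the 10 genes. The windows are chr5:8566841-8567140 (plus strand) for Abcb1a, chr5:8797897-8798196 (plus strand) for Abcb1b and chr14:118706170-118706469 (minus strand) for Abcc4. A second RefSeq window of Abcc4, chr14:118676882-118677181 (minus strand), belongs to a start 29288 bases into the gene and is not printed. The start sites of the printed Abcb1b and Abcc4 windows are the GENCODE gene starts, whereas that of Abcb1a lies 92986 bases before the GENCODE start of the gene, and the counts do not tell which start was used. Capitals mark matches to the motifs named next.
Abcb1a: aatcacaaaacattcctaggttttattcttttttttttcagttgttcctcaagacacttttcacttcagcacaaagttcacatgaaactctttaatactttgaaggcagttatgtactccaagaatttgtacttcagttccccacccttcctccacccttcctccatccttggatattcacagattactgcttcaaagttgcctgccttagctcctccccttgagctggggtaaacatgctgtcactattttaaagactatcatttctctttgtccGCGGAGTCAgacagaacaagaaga
Abcb1b: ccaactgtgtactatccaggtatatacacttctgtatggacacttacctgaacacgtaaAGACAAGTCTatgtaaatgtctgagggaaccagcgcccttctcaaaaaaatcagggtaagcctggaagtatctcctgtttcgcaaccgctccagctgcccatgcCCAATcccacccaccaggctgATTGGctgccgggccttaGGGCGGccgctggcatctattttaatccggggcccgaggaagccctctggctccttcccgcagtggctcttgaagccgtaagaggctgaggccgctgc
Abcc4: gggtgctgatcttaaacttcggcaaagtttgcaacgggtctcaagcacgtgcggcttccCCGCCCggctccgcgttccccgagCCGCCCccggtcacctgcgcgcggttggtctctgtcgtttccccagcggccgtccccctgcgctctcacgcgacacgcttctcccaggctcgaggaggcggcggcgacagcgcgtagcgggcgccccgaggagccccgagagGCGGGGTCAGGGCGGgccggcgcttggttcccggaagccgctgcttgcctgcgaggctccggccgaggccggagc
On both strands, 5 motifs were searched: the CCAAT box (CCAAT), the GC box (GGGCGG), the AP-1 site (TGANTCA), the antioxidant response element core (TGACNNNGC) and the p53 half-site. Over all 32851 windows of the table they occur in 37.4%, 35.7%, 7.81%, 12.4% and 8.36%. The Abcb1b window holds a CCAAT box at bases 164 to 168, an inverted one at 185 to 189, a GC box at 203 to 208 and a p53 half-site at 60 to 69. That of Abcb1a holds an antioxidant response element core at bases 277 to 285 and no match to the other 4 motifs. The printed Abcc4 window holds 3 GC boxes and, at bases 226 to 234, an antioxidant response element core that ends where the last GC box begins, and its second window holds such a core at bases 228 to 236 and no match to the other 4 motifs. GC content was 40.3% for Abcb1a, 55% for Abcb1b and 72.7% for Abcc4 (47.3% in its second window), against a median of 52.7%. These matches describe the letters of the windows, not sites in use.

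Among the conjugate pumps, Abcc3 rose in both populations. It had 2.06, 1.87 and 2.44 CPM in untreated LGR5- cells and 6.59, 3.98 and 4.84 CPM after 5-FU. In LGR5+ cells it had 2.19, 3.75 and 2.81 CPM untreated and 8.26, 5.17 and 5.91 CPM after 5-FU. Treated and untreated libraries did not overlap in either population. edgeR's quasi-likelihood test gave a 2.42-fold rise in LGR5- cells (log2 fold change 1.27, SE 0.31, adjusted p = 0.0134) and a 2.21-fold rise in LGR5+ cells (log2 fold change 1.14, SE 0.31, adjusted p = 0.0200). The call in LGR5+ cells was lost without untreated replicate 1 (log2 fold change 0.98, adjusted p = 0.0803), untreated replicate 3 (1.12, 0.0729), treated replicate 1 (0.93, 0.0854) or treated replicate 3 (1.20, 0.0525). In LGR5- cells it was lost without untreated replicate 2 (1.19, adjusted p = 0.0541) or treated replicate 1 (1.05, 0.0514), and in a fit of only the libraries compared (1.28, 0.0640).

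Abcc1, the pump of glutathione conjugates on the basolateral membrane, did not pass the test. Its levels were 20.9 to 28.2 CPM in untreated and 20.1 to 26.1 CPM in treated LGR5- cells, and 18.99 to 28.6 and 19.2 to 22.6 CPM in LGR5+ cells. The groups overlapped. At 295 to 507 reads per library it was measured more closely than Abcb1a, and the 95% interval of its log2 fold change reached from -0.60 to 0.25 in LGR5- cells and from -0.55 to 0.30 in LGR5+ cells. A change of 2-fold in either direction lies outside both intervals. Abcc2, the canalicular counterpart, was near the limit of 3 reads, with 14 reads in treated LGR5- replicate 1 and at most 5 in the other libraries.

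Of the nucleotide pumps, Abcc4 rose in LGR5- cells, while Abcc4 in LGR5+ cells and Abcc5 in both populations did not pass the test. Abcc4 had 29.5, 27.3 and 21.5 CPM in untreated LGR5- cells and 34.5, 39.8 and 47.8 CPM after 5-FU, and 34.1, 31.3 and 23.1 against 38.6, 42.9 and 45.4 CPM in LGR5+ cells. The treated and untreated libraries of each population did not overlap. edgeR's quasi-likelihood test called Abcc4 in LGR5- cells, 1.56-fold up (log2 fold change 0.64, SE 0.19, adjusted p = 0.0370), and gave 1.44-fold in LGR5+ cells (0.52, SE 0.19, adjusted p = 0.0809). The LGR5+ response of Abcc4 passed without both LGR5- replicate 3 libraries (0.52, adjusted p = 0.0238 by edgeR) and in a fit of only the libraries compared (0.52, 0.0382). The call in LGR5- cells was lost without both replicate 3 libraries, where Abcc4 was lowest before and highest after treatment (log2 fold change 0.39, adjusted p = 0.181 by edgeR). It was also lost without untreated replicate 1 (0.74, adjusted p = 0.0535), untreated replicate 2 (0.67, 0.0832), untreated replicate 3 (0.52, 0.0803), treated replicate 2 (0.65, 0.0794) or treated replicate 3 (0.54, 0.0994), or in a fit of only the libraries compared (0.65, 0.109), and stayed without treated replicate 1 (0.74, 0.0300).

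Abcc5 had 12.1, 11.4 and 14.6 CPM in untreated and 14.4, 20.8 and 39.2 CPM in treated LGR5- cells, which overlapped narrowly, with treated replicate 3 far above the rest. In LGR5+ cells it had 14.7, 8.23 and 8.60 CPM untreated and 17.5, 20.3 and 21.6 CPM after 5-FU, with no overlap. The log2 fold change was 0.96 in LGR5- cells (SE 0.31, adjusted p = 0.0517 by edgeR's quasi-likelihood test) and 0.91 in LGR5+ cells (SE 0.32, adjusted p = 0.0644). DESeq2 gave an adjusted p of 0.0232 and 0.0412. Without a filter on low counts the adjusted p of edgeR was 0.0121 and 0.0304 for Abcc5, and in a fit of only the libraries compared 0.116 and 0.0117. With DESeq2's size factors in the edgeR fit, the LGR5- response of Abcc5 passed as well (0.99, adjusted p = 0.0477). Without both LGR5- replicate 3 libraries the LGR5+ response had an adjusted p of 0.00855 by edgeR at a log2 fold change of 0.91. It also passed without untreated LGR5+ replicate 1 (1.24, adjusted p = 0.0274). The LGR5- response fell to 0.51 (adjusted p = 0.253) without treated LGR5- replicate 3 and to 0.58 (adjusted p = 0.158) without both LGR5- replicate 3 libraries, and passed without untreated replicate 3 (1.07, adjusted p = 0.0490) or treated replicate 1 (1.24, 0.0107).

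Abcc10 and Abcg2 were not called. Abcc10 had 4.42, 4.06 and 11.4 CPM in untreated LGR5- cells and 6.12, 6.68 and 15.04 CPM after 5-FU, against 4.27, 4.85 and 5.73 and then 5.57, 6.33 and 6.14 CPM in LGR5+ cells. Both LGR5- replicate 3 libraries stood above the other 10, and the treated and untreated groups overlapped. The log2 fold change was 0.48 in LGR5- cells (adjusted p = 0.473 by edgeR's quasi-likelihood test) and 0.28 in LGR5+ cells (adjusted p = 0.694). Without untreated LGR5- replicate 3 the LGR5- response was 1.12 (adjusted p = 0.0357), without treated LGR5- replicate 3 it was -0.02 (adjusted p = 0.983), and without both it was 0.59 (SE 0.25, adjusted p = 0.121).

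Abcg2, a pump with a broad range of drug substrates, was the tested gene with the lowest fold change in LGR5- cells. It had 8.97, 7.74 and 6.61 CPM in untreated LGR5- cells and 7.004, 3.98 and 3.23 CPM after 5-FU, with replicate 1 of the treated cells inside the untreated range. In LGR5+ cells it had 8.08, 6.70 and 7.89 CPM untreated and 8.10, 4.13 and 6.02 CPM after 5-FU, again overlapping. The log2 fold change was -0.71 in LGR5- cells (unadjusted p = 0.0381 and adjusted p = 0.146 by edgeR's quasi-likelihood test) and -0.31 in LGR5+ cells (adjusted p = 0.540). Without treated LGR5- replicate 1 the LGR5- value was -1.11 (adjusted p = 0.0287). Abcb4 had 8 reads in untreated LGR5- replicate 3 and at most 3 reads, the limit of a count of 0, in every other library.

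**Figure D4:**
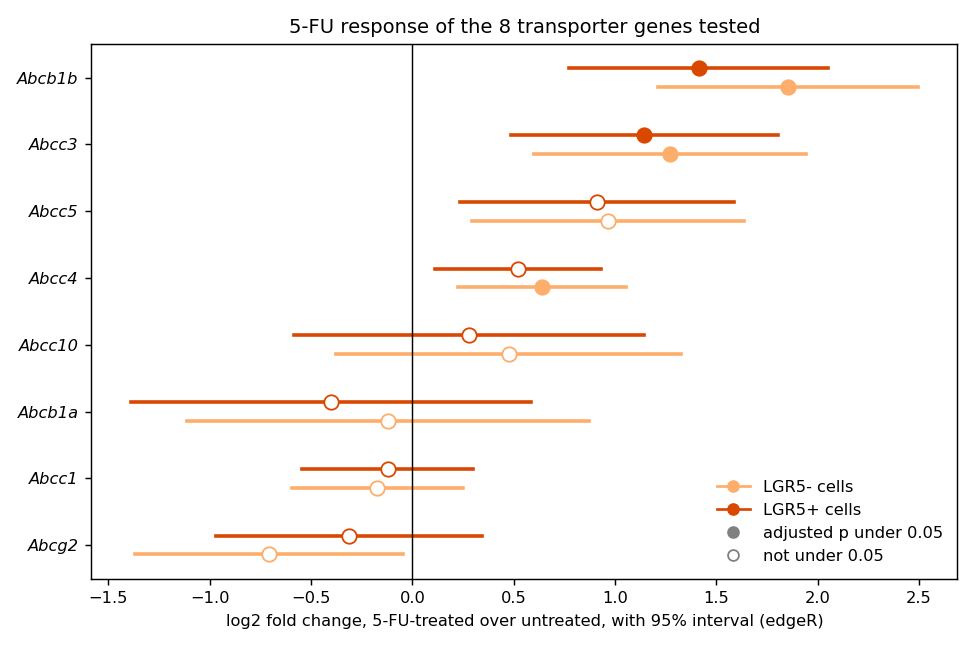
Log2 fold change of 5-FU-treated over untreated cells with its 95% interval (x axis, edgeR) for the 8 transporter genes tested (y axis), in LGR5- and LGR5+ cells. Filled points, Abcb1b and Abcc3 in both populations and Abcc4 in LGR5- cells, have an adjusted p under 0.05.

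After 5-FU no transporter gene was called different between the populations. edgeR's quasi-likelihood test called 0 of 8 genes between treated LGR5+ and LGR5- cells, none had an unadjusted p under 0.05, and DESeq2 called 0. Over all genes the test called 0%, with 2095 at an unadjusted p under 0.05, and DESeq2 called 80. The log2 differences ran from -0.62 for Abcc10 (95% interval -1.47 to 0.23) to 0.35 for Abcg2 (-0.31 to 1.02). Abcb1b had a difference of -0.41 (-1.02 to 0.20), Abcc3 of 0.33 (-0.32 to 0.97) and Abcc4 of 0.06 (-0.35 to 0.47). These intervals do not use the replicate numbers. By number, Abcb1b had 10.3, 6.00 and 7.66 CPM in LGR5+ cells against 12.7, 8.08 and 11.1 CPM in LGR5- cells. Abcc3 had 8.26, 5.17 and 5.91 against 6.59, 3.98 and 4.84 CPM, and Abcc4 was not higher in the same population throughout. A fit with the replicate number as a block called 0 transporter genes. The difference between the responses was not called for any transporter gene either: the test called 0 of 8 genes, at a background of 0%, with none at an unadjusted p under 0.05 and 0 by DESeq2. For Abcb1b the LGR5+ response minus the LGR5- response was -0.44 (-1.33 to 0.45) on the log2 scale, and for Abcc3 it was -0.13 (-1.06 to 0.80). These intervals still hold differences of 2-fold, so equal responses are not shown.

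Of the other ABC genes, 40 were in the table and 21 were tested. In LGR5+ cells 5 rose after 5-FU and 0 fell, with a median log2 fold change of 0.24, and in LGR5- cells 2 rose and 0 fell, with a median of 0.09. Beside these, 9.66% and 8.3% of all genes were called higher, with medians of -0.02 and -0.05, so that the count in LGR5- cells was near the background. Abca12, a lipid transporter of epithelia, rose in both, from 0.415 to 6.38 CPM in LGR5+ cells (log2 fold change 3.91, SE 0.40, adjusted p = 1.69e-05 by edgeR) and from 0.470 to 6.32 CPM in LGR5- cells (3.72, SE 0.39, adjusted p = 3.79e-05). Abca2 (1.04, adjusted p = 0.0129) and Abcd4 (0.67, adjusted p = 0.0317) also rose in LGR5+ cells by edgeR, as did Abcg1 (1.65, adjusted p = 0.0387) and Abca5 (1.51, adjusted p = 0.0417), named after their values were seen. In LGR5- cells Abca8b rose (3.5998, SE 0.89, adjusted p = 0.0133 by edgeR) from 0.118 to 1.48 CPM. It had 0 to 4 reads in untreated and 15 to 27 in treated LGR5- libraries. Its untreated mean lay below the limit of a count of 0, so the size of the rise is not well measured. By subfamily, of 7 tested Abca genes 3 rose in LGR5+ and 2 in LGR5- cells. Of 4 tested Abcb genes outside the drug pumps and 3 Abcf genes, which are not membrane pumps, 0 rose in either population, counts too small to set apart from the background.

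**Figure D5:**
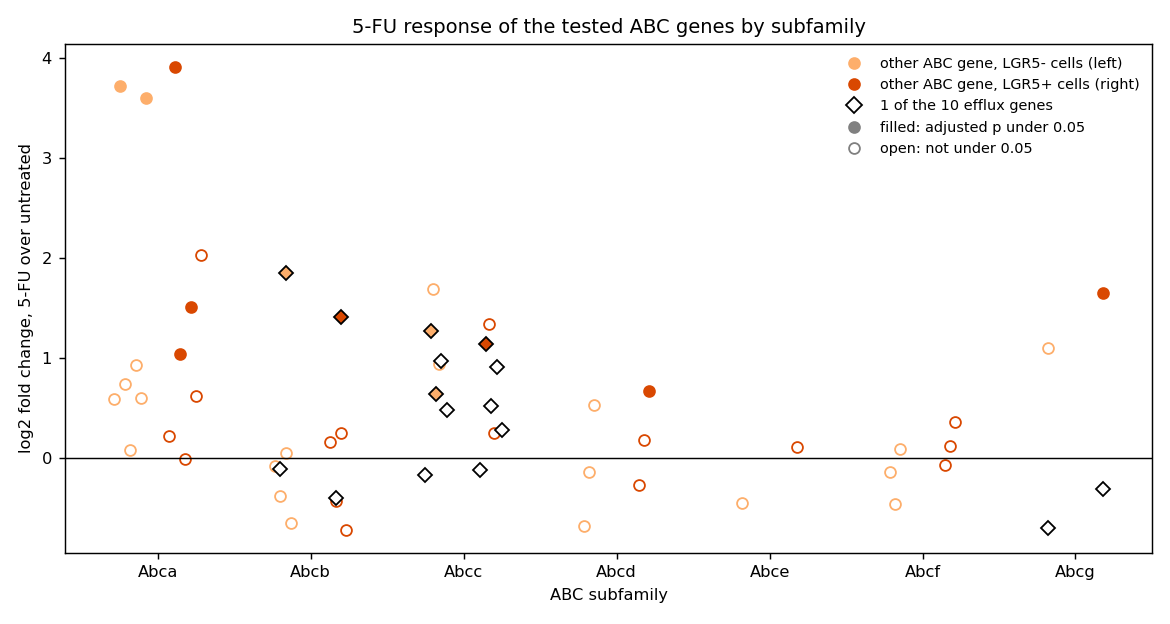
Log2 fold change after 5-FU (y axis) of the tested ABC genes by subfamily (x axis), LGR5- cells on the left and LGR5+ cells on the right of each tick. Diamonds are the efflux genes and circles the other ABC genes, filled where the adjusted p is under 0.05; Abca12 lies highest in both populations.

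Genes that act beside the pumps were taken from 4 lists. Of 9 genes that carry 5-FU or nucleosides into the cell, 6 were tested and 2 fell in each population, with 0 rising, where 6.37% of all genes were called lower in LGR5+ cells and 7.11% in LGR5- cells. Slc29a1, the equilibrative nucleoside transporter of the plasma membrane, went from 123 to 51.7 CPM in LGR5+ cells (log2 fold change -1.25, SE 0.24, adjusted p = 0.00237 by edgeR) and from 136 to 68.2 CPM in LGR5- cells (-0.995, SE 0.24, adjusted p = 0.0106). Slc29a2, its relative, fell from 4.84 to 2.36 CPM (-1.04, adjusted p = 0.0415 by edgeR) and from 5.23 to 1.67 CPM (-1.64, adjusted p = 0.00438). The median of the list was -0.43 in LGR5+ and 0.13 in LGR5- cells, so the latter median and the calls differ in sign.

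A list of 31 conjugation genes held enzymes that attach glutathione, glucuronic acid or sulphate and so make substrates of the Abcc pumps. It also held Gclc, Gclm and Gss, which make glutathione itself. Of the 31, 23 were tested, and Gss was among those that rose in both populations. In LGR5+ cells 8 rose and 0 fell (median log2 fold change 0.48), and in LGR5- cells 7 rose and 0 fell (0.61), against 9.66% and 8.3% of all genes called higher and all-gene medians of -0.02 and -0.05. Sult1a1, a phenol sulfotransferase, rose from 6.52 to 35.4 CPM in LGR5+ cells (2.44, SE 0.22, adjusted p = 7.39e-06 by edgeR) and from 5.59 to 27.2 CPM in LGR5- cells (2.28, SE 0.22, adjusted p = 2.12e-05). Gsto1, an omega-class glutathione transferase, rose from 78.8 to 369 CPM and from 78.0 to 208 CPM. Sult2b1, a sterol sulfotransferase, rose from 8.53 to 24.0 CPM in LGR5+ cells and from 7.60 to 15.8 CPM in LGR5- cells, and Gstm2, a mu-class glutathione transferase, from 393 to 770 CPM and from 366 to 780 CPM.

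Among 18 regulators known to act on efflux genes, 13 were tested. In LGR5+ cells Nfe2l2, the transcription factor of the antioxidant response, rose from 149 to 290 CPM (log2 fold change 0.96, SE 0.21, adjusted p = 0.00557 by edgeR) and Rxra, the common partner of nuclear receptors, from 8.72 to 18.98 CPM (1.12, SE 0.26, adjusted p = 0.00873), and 0 fell. In LGR5- cells only the oxysterol receptor gene Nr1h3 rose (1.28, SE 0.32, adjusted p = 0.0149 by edgeR), from 1.29 to 3.14 CPM. The list medians were 0.26 and 0.10, and its shares called higher, 2 and 1 of 13, were near the background of 9.66% and 8.3%. Of 12 scaffold and trafficking genes that hold pumps at the membrane, 3 rose in LGR5+ cells and 2 in LGR5- cells, with 0 falling and medians of 0.47 and 0.15, against the same shares of 9.66% and 8.3% over all genes. Msn, which links membrane proteins to actin, rose from 74.0 to 203 CPM in LGR5+ cells (1.45, adjusted p = 3.59e-05 by edgeR) and from 63.8 to 129 CPM in LGR5- cells (1.01, adjusted p = 8.10e-04), and Rab11a, of the recycling endosome, rose in both (0.89 and 0.70). Slc9a3r1, an apical scaffold, rose in LGR5+ cells (0.90, adjusted p = 0.0405 by edgeR). Between LGR5+ and LGR5- cells after 5-FU, and for the difference between the responses, 0 genes of these lists were called by edgeR.

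The genes whose log2 CPM followed the called transporters most closely over the 12 libraries, of which 6 were treated, were Prss32 (Pearson r = 0.973) and Serpinb11 (0.964) for Abcb1b, Cd68 (0.981) and Rgs14 (0.979) for Abcc3, and Unc80 (0.958) and Selenon (0.954) for Abcc4. Prss32 went from 1.16 to 10.3 CPM in LGR5- cells and from 0.799 to 8.30 CPM in LGR5+ cells. Selenon went from 20.8 to 32.1 and from 22.0 to 39.2 CPM. These correlations describe libraries that share 2 treatments, and the genes were the closest of 16156 compared.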

How the data were processed

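RNA of sorted organoid cells was amplified (the labels name a SMART-Seq kit, the methods SMARTer) and sequenced by the study as paired 150-base reads. The authors deposited raw read counts per Ensembl gene, without normalization; per the labels, the submitters' processing notes name HISAT2, TopHat2, HTSeq and the build mm8, with no role given. Positions come from GENCODE M21 (GRCm38) and describe that annotation, not the authors' counting. Whether libraries of a group came from separate cultures is not given in the sources used here, so p-values measure the spread between libraries, which may be technical.

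Condition, sort and replicate number were taken from the sample titles, reading Co and Tr as untreated and 5-FU-treated. Of 47069 genes, 16157 passed filterByExpr. Counts were scaled by TMM and fitted on 4 group means with edgeR 4.0.16 (robust quasi-likelihood test, R 4.3.3, limma 3.58.1; common dispersion 0.0708), with Benjamini-Hochberg adjustment over all genes tested; DESeq2 1.42.0 served as an alternative. The SE is the fold change divided by the square root of F. Tested on simulated data for the LGR5+ response, the edgeR step recovered 31% of genes changed by 1 on the log2 scale and 77% of those changed by 1.5, among 15787 genes. The simulation changed 100 genes of each size, with the same dispersion for all genes. No 2 libraries of a group agreed within sampling noise (chi-square per degree of freedom 15.1 or more).

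Named genes were the 10 members, up to 3 genes per list and comparison with the smallest adjusted p, and the 2 genes most alike to each called member. Members, lists and the other choices were made with earlier results of these data known. Deviations from group means correlated between same-numbered 5-FU-treated LGR5+ and LGR5- libraries (r = 0.571, 0.217 and 0.304 across genes), against at most 0.118 for different numbers. The numbers were therefore taken to pair these. Same-numbered values were 0.481, -0.119 and 0.223 between untreated populations and 0.0546, 0.282 and 0.425 for the LGR5- response. For the LGR5+ response they were -0.0848, -0.168 and 0.0184. Different numbers reached 0.301, 0.307 and 0.205 there, so pairing was not clear. Alternatives were other filters and scalings, DESeq2, the compared libraries alone, a replicate block, both LGR5- replicate 3 libraries left out, and each library left out in turn. Motifs were searched in RefSeq promoter windows.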

Additional observations from a re-analysis of the deposited data

How the results depend on the processing

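The rise of Abcb1b held its call in every alternative fit of both populations, and no alternative called a transporter gene in the comparisons between populations or in the difference between the responses. With 3 libraries per group and 14 to 40 reads on Abcb1a, small changes could be missed. On simulated data the edgeR step recovered 31% of genes changed by 1 on the log2 scale. That simulation changed 100 genes of each size, with the same dispersion for all genes. In the LGR5+ response 16% of all genes were called, so the simulated recovery need not hold for these data. Scaling by library size only moved the median of all genes in LGR5+ cells after 5-FU to -0.103. The cause of the changes listed next was not tested, except that a call lost with a library left out also rests on fewer libraries.

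At an unadjusted p under 0.05 with a fold limit of 1.5 on the log2 scale, 0 transporter genes were called in LGR5+ and 1 in LGR5- cells after 5-FU, and 1168 and 1131 of all genes. This rule called 74 genes between untreated populations, 274 between treated ones and 69 for the difference between responses, where the adjusted p called 0. A fit of only the libraries compared called 4 transporter genes and 4045 of all genes for the LGR5+ response, and 1 and 1282 for the LGR5- response. Without both LGR5- replicate 3 libraries, 4 transporter genes and 4448 of all genes were called for the LGR5+ response, and 2 and 2741 for the LGR5- response. Between treated populations, 11 genes were called without a filter, 80 by DESeq2 and 3 with a replicate block within treatment, against 0. Leaving out 1 library at a time gave 1 to 2 transporter genes and 1373 to 2488 of all genes for the LGR5+ response, and 1 to 4 and 1562 to 3418 for the LGR5- response.

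With DESeq2's size factors in the edgeR fit, 4 transporter genes were called in LGR5- cells, adding Abcc5. With the replicate block over all libraries, 2 transporter genes were called in LGR5+ and 4 in LGR5- cells, adding Abcc5 in the latter, and 2967 and 2890 of all genes. The numbers do not clearly pair the treated with the untreated libraries. Between the treated populations, which the numbers were taken to pair, the replicate block called 0 transporter genes and changed no call of a transporter gene.

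Uncalled values changed sign in some fits, and not all of them were near 0. The main values were -0.42 for the untreated difference of Abcc10 and -0.32 for the treated difference of Abcc5. Without both LGR5- replicate 3 libraries, the LGR5- response of Abcb1a became 0.15, the untreated difference of Abcc10 0.22 and the treated difference of Abcc5 0.16, and the differences between responses became -0.0587 for Abcc1, 0.13 for Abcc4 and 0.32 for Abcc5. The treated difference of Abcc4 was -0.0389 by library size only and -0.0185 in the fit of only the libraries compared. The difference between responses of Abcc1 was -0.0102 without a filter and -0.051 by library size only. With the replicate block within treatment, the untreated difference of Abcb1b was -0.0016 and the difference between responses of Abcc5 was 0.10.

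Leaving out 1 library at a time, the response of Abcc1 in LGR5+ cells ran from -0.23 to 0.087, and in LGR5- cells that of Abcb1a from -0.54 to 0.15 and that of Abcc10 from -0.0214 to 1.12. The untreated difference ran from -0.18 to 0.39 for Abcb1a, from -0.26 to 0.22 for Abcb1b, from -0.67 to 0.22 for Abcc10 and from -0.14 to 0.0811 for Abcg2. The treated difference ran from -0.46 to 0.33 for Abcb1a, from -0.0419 to 0.15 for Abcc4 and from -0.59 to 0.13 for Abcc5. The difference between responses ran from -0.64 to 0.14 for Abcb1a, from -0.0584 to 0.26 for Abcc1, from -0.34 to 0.10 for Abcc3, from -0.26 to 0.0044 for Abcc4, from -0.32 to 0.40 for Abcc5 and from -0.84 to 0.30 for Abcc10.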
